A study of Mus musculus with 12 samples.

Results

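Translation initiation factors bring the small ribosomal subunit to the start codon of an mRNA, and elongation factors then carry the ribosome along the coding sequence. Their transcripts were described in mouse dendritic cells, antigen-presenting cells derived from marrow cultures in the growth factor GM-CSF. Members were chosen by name, as every gene of the expression table whose mouse symbol starts with Eif or Eef followed by a digit, without the Eif2ak kinases. This gave 61 of 11786 genes. The annotation holds 67 protein-coding genes with such a symbol, and the 6 without a row were Eef1akmt3, Eef1akmt4, Eef1akmt4-ece2, Eif3j2, Eif4e1b and Eif4ebp3. The rule also takes in regulators and modifying enzymes (Eif4ebp1, Eif4ebp2, Eif4enif1, Eef2k, the Eef1a and Eef2 methyltransferases) and Eif1ad, a protein named for its domain. Eef1e1, a scaffold part of the complex of tRNA synthetases, is likewise a member by its name only.

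RNA was sequenced from wild-type cells alone, wild-type cells with tumour lysate, Ythdf1-/- cells alone and Ythdf1-/- cells with tumour lysate, with 2 libraries in each of these 4 groups. Lysate stands for an overnight culture with dead B16-OVA melanoma cells (a mouse tumour line expressing the model antigen ovalbumin) and purification of the dendritic cells afterwards. The sources used here give no strain, no age and no description of the Ythdf1 allele, and do not state whether paired libraries of a group derive from different animals or cultures. The p-values therefore measure only the spread between these libraries, which may be technical. The 4 RNA immunoprecipitation samples of the series were not analysed here.

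YTHDF1 is a reader of N6-methyladenosine (m6A), a methyl mark on mRNA, and is known for promoting the translation of marked transcripts, in part through contacts with the initiation complex eIF3. Initiation starts when eIF2 delivers the initiator tRNA and eIF4E, the protein that binds the 5′ cap, recruits the scaffold eIF4G and the helicase eIF4A. The 4E-BP proteins hold eIF4E back, and phosphorylation of eIF2 slows its recycling by eIF2B. RNA levels do not measure how much of a protein is made or how fast it works.

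Values are log2 levels on a scale that shrinks low genes towards their mean, and a change or difference is in log2 units with the standard error of a limma fit over all genes and all 8 libraries. A gene was called where the Benjamini-Hochberg adjusted p over 11785 genes was under 0.05. The table holds no read counts, so depth is unknown. Ythdf1 itself (Entrez 228994) stood at 9.58 and 9.43 in wild type alone, 9.72 and 9.58 with lysate, 9.53 and 9.43 in Ythdf1-/- alone and 9.51 and 9.46 with lysate. Its difference between genotypes missed the threshold in both treatments (limma adjusted p = 0.85 alone and 0.202 with lysate), so its level does not check the genotype labels, and each genotype is named by its label.

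The labelled cell type and its possible admixtures were read from marker lists. Of 12 dendritic cell markers 11 had a row, all 12 macrophage and monocyte markers did, and 9 of 10 neutrophil markers did, whereas none of the 6 B cell and none of the 7 T and NK cell markers had one. The log2 of the summed neutrophil marker levels lay between 13.78 and 14.16 in the 4 wild-type libraries and between 12.55 and 12.73 in the 4 Ythdf1-/- libraries. Of the 9, 8 were lower in Ythdf1-/- without lysate and 8 with lysate. The dendritic cell sum lay between 17.52 and 17.74 in the 4 libraries without lysate and between 17.14 and 17.23 in those with it, and 7 of 11 markers fell with lysate in wild type and 8 of 11 in Ythdf1-/-. Between genotypes 4 of these 11 were higher and 1 lower in Ythdf1-/- without lysate, and 6 were higher with it. All 6 measured pigment cell markers (of 10) rose with lysate in each genotype, and their sum went from 16.15 and 16.19 to 16.85 and 16.84 in wild type and from 16.10 and 16.04 to 16.65 and 16.68 in Ythdf1-/-. Gpnmb, which myeloid cells also make, gave at least 98.5% of this sum in every library. Without it the sum of the other 5 went from 10.12 and 10.00 to 10.56 and 10.45 in wild type and from 9.80 and 9.96 to 10.39 and 10.45 in Ythdf1-/-. Dct, which makes melanin, went from 4.75 and 4.75 to 5.80 and 5.95 in wild type and from 4.87 and 4.84 to 6.20 and 6.13 in Ythdf1-/-. With lysate Tyrp1 (0.38, limma adjusted p = 0.0177) and Dct (0.29, limma adjusted p = 0.0468) were higher in Ythdf1-/- than in wild type, whereas the difference of Gpnmb was -0.18 (limma adjusted p = 0.0835). The macrophage sum was 17.70 and 17.70 in wild type alone, 17.47 and 17.48 with lysate, and between 17.17 and 17.25 in Ythdf1-/-. In bulk RNA, fewer cells of a type and less RNA per cell cannot be told apart, and the part of these cell types in the results below was not tested.

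Members spanned a wide range of abundance. Per kilobase of transcript, Eef1a1, which brings aminoacyl-tRNA to the ribosome, ranked 12 of 11419 genes with a length in wild type alone, at a log2 level of 15.92 per kilobase. Next came Eif4g2 at 13.19, Eif1 at 12.75, Eef2 at 12.44, Eif4a1 at 12.01 and Eif5a at 11.69. This order rests on lengths that are medians over annotated transcripts, which may include partial ones (752.5 bases for Eif4g2 and 859 for Eef1a1). A longer length would lower the level per kilobase. Unscaled, Eef2 stood at 14.07 and Eif4a1 at 12.84, both above Eif4g2 at 12.78. The lowest were Eif5a2 at 4.50 and Eef1a2 at 3.63, tissue-restricted relatives of Eif5a and Eef1a1. Before scaling by length, 46 of the 61 members lay above the median log2 level of all genes in wild type alone (8.54), and the median member lay at 9.85. Eif2s3y, the Y-linked copy of the gamma subunit of eIF2, lay between 9.88 and 10.32 in all 8 libraries. Eif2s3x and Eif2s3y, Eif4a3 and Eif4a3l1, Eif4a1 and Eif4a2, Eif1 and Eif1b, Eif1a and Eif1ax, and Eef1a1 and its many processed copies are so alike that the counting could have split their reads, and their values are uncertain for that reason.

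Promoter sequence was looked up because several members moved together with lysate. RefSeq windows of 300 bases (GRCm38.p6, 250 before to 50 after an annotated start) were found for 49 of the 61 members. The E-box CACGTG, a palindrome bound by MYC and related factors, occurred in windows of 13 of these 49 genes (26.5%) and of 1122 of 9427 genes of the table (11.9%). Median GC content was 62.3% in the members' windows and 60.7% in all. Of the 11 members with a window that rose with lysate in wild type, 3 held an E-box (27.3%), namely Eif4e, Eif4a1 and Eif5a, and of the 3 that fell 1 did, Eef2. The element TGATGNAAT of the stress factor ATF4, read on both strands, was in no window of a member and in those of 43 genes of the table (0.5%). Both motifs were chosen after the expression values were seen, and no match of one overlaps a match of the other in a member. The stretches around the E-boxes upstream of the starts of Eif4e and Eif4a1, which rose in both genotypes, and of Eef2, which fell in wild type, are given 5′ to 3′ on the gene's strand with the E-box in capitals. They lie at chr3:138527028-138527057 and chr3:138527192-138527221 on the plus strand for Eif4e, chr11:69672595-69672624 on the minus strand for Eif4a1 and chr10:81176576-81176605 on the plus strand for Eef2. The 4 E-boxes begin 228, 64, 189 and 43 bases before the annotated start, in that order.
Eif4e, distal: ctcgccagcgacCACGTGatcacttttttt
Eif4e, proximal: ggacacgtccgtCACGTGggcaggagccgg
Eif4a1: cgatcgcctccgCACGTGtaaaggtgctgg
Eef2: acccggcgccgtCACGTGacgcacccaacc
A match is a string of letters only. It stood before genes that rose, before a gene that fell and before genes not called with lysate, such as Eif3f and Eif4h. The share of genes with an E-box was 27.3% among the members that rose in wild type and 26.5% among all members with a window.

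Lysate changed the transcripts of the cap-binding protein, several eIF2 subunits and the helicase eIF4A in wild-type cells. Of 61 members 14 rose and 5 fell, 31.1% against 21.5% of all genes tested. The share that rose was 23.0% against 10.2% of all genes, and the share that fell was 8.2% against 11.3%. The median change of the members was 0.046, and that of all genes was -0.010. Both libraries with lysate lay above both libraries without it for 23 members (28.5% of all genes did) and below them for 12 (32.3% of all genes). The count of 19 fell to 4 without wild-type alone replicate 2, to 6 or 10 when replicate 1 or replicate 2 of lysate-treated wild type was dropped, and to 9 without either Ythdf1-/- lysate library. Beside these counts the share of members and of all genes was 6.6% and 8.7% without the first of these libraries, 9.8% and 9.4% or 16.4% and 15.9% without the next 2, and 14.8% against 16.1% or 16.2% without either of the last. Members and all genes were thus called at nearly the same rate in these 5 fits. Without wild-type alone replicate 1 or either untreated Ythdf1-/- library, members were still called more often than genes at large. The 4 calls that remained in every fit with 1 library left out were those of Eif4e, Eef1e1, Eif2s1 and Eif4a1. Correction for GC content and length ended the calls of Eef2, Eif2b3, Eif1ax and Eif2s2. It brought others, so that 23 members were called (37.7%, against 28.8% of all genes). Median centring ended the calls of Eif4ebp2 and Eif3h, and quantile normalization those of Eif4ebp2, Eif3b and Eif3j1.

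**Figure D1:**
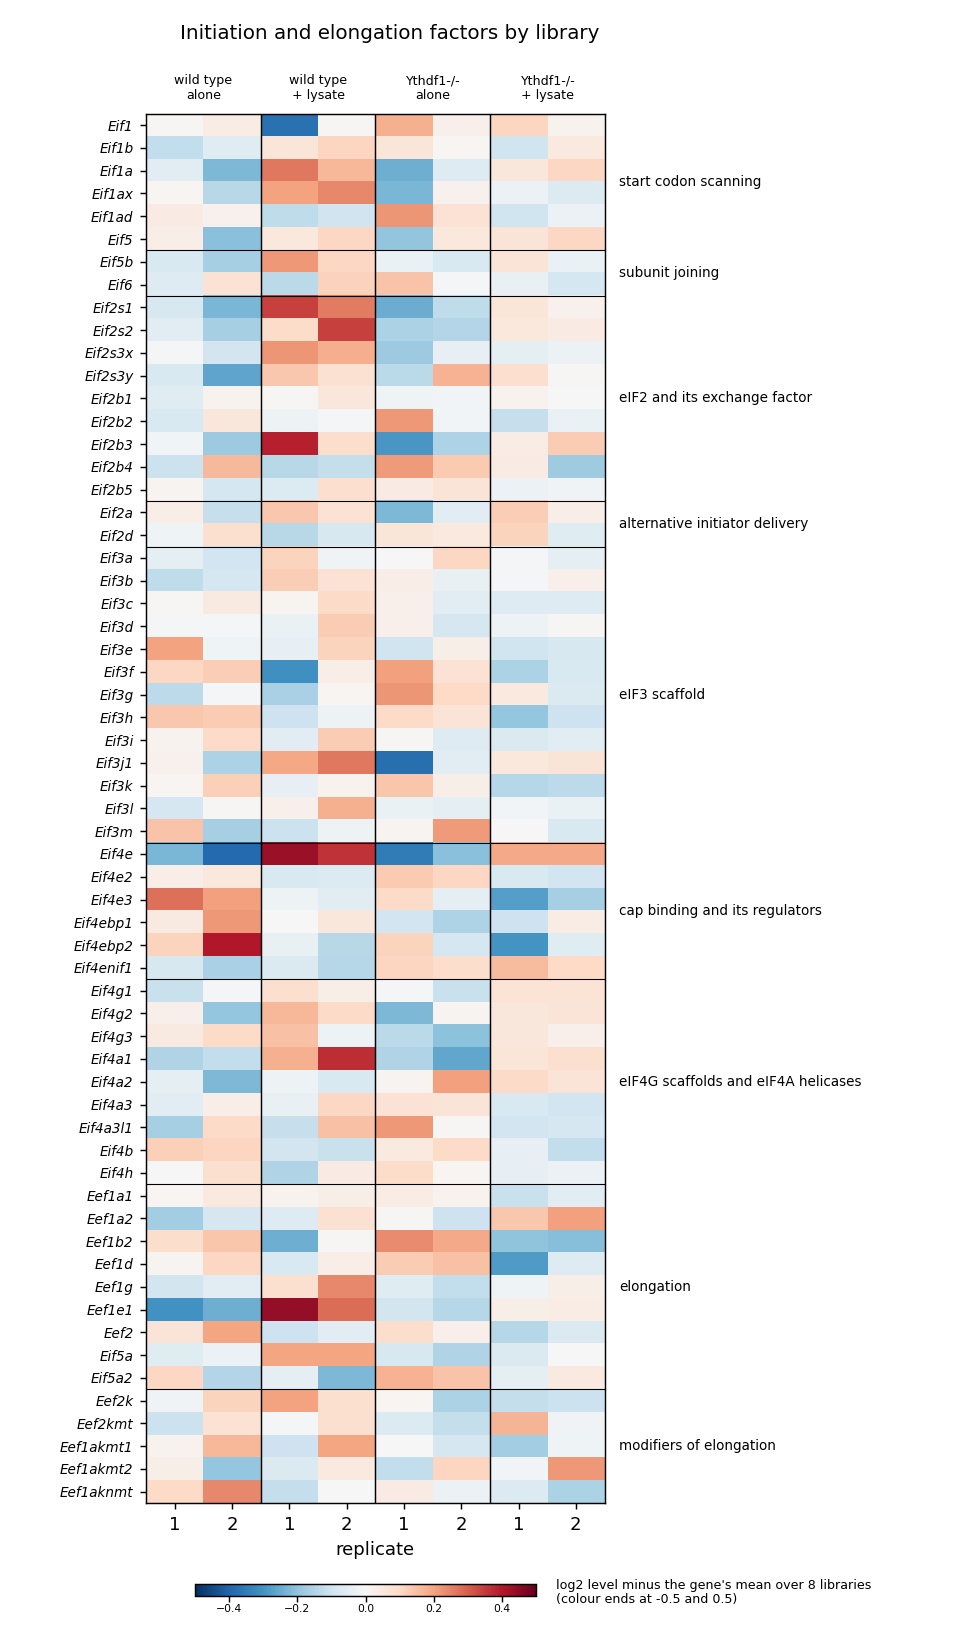
Heat map of the 61 members (rows, grouped by role) in the 8 libraries (columns, by group and replicate), as the log2 level minus the gene's own mean over the 8 libraries, with the colour ending at -0.5 and 0.5. Eif4e and Eef1e1 are dark red in both wild-type lysate libraries, whereas Eif2b3 and Eif2s2 are dark in only 1 of the 2.

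Among cap-binding proteins, Eif4e (Entrez 13684), the factor that grips the mRNA cap, had the largest rise of all members. It stood at 9.01 and 8.85 in wild type alone and at 9.67 and 9.60 with lysate, and at 8.89 and 9.03 in Ythdf1-/- alone and 9.43 and 9.43 with lysate. All 4 lysate libraries lay above all 4 others. The rise was 1.63-fold in wild type (log2 change 0.70 ± 0.082, limma adjusted p = 9.5e-05) and 1.39-fold in Ythdf1-/- (0.48 ± 0.082, limma adjusted p = 0.00195), and both calls held in all 8 fits with 1 library left out. Eif4e3 (Entrez 66892), a cap-binding relative, moved the other way, from 9.31 and 9.24 to 9.01 and 8.98 in wild type. It fell by 0.28 ± 0.081 (limma adjusted p = 0.026) there, and its change of -0.24 in Ythdf1-/- missed the threshold (limma adjusted p = 0.0593). Eif4e3 lost the wild-type call without any 1 of the 4 wild-type libraries. Eif4e2, a repressive cap-binding relative, was not called by lysate, at 10.07 and 10.09 in wild type alone and 9.96 and 9.97 with lysate.

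Only 1 of the 2 4E-BP genes in the table was called with lysate in wild type. Eif4ebp2 (Entrez 13688), which encodes 4E-BP2, stood at 8.80 and 9.09 in wild type alone and at 8.65 and 8.55 with lysate. It fell by 0.34 ± 0.113 on the log2 scale (limma adjusted p = 0.0473), close to the threshold, with 1 untreated library well above the other. Its change was -0.19 without wild-type alone replicate 2. Leaving out that library, either wild-type lysate library or either Ythdf1-/- lysate library ended that call. Eif4ebp1 (Entrez 13685), the better-known 4E-BP1, was not called, with 8.11 and 8.28 alone, 8.06 and 8.12 with lysate, 7.97 and 7.91 in Ythdf1-/- alone and 7.96 and 8.10 with lysate.

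Several subunits of eIF2, the complex that carries the initiator tRNA, rose in wild type. Of its subunits and those of its exchange factor eIF2B, 4 of 9 rose, none fell and 5 were not called. That is 44.4% called, against 21.5% of all genes, with a median change of 0.25. The role groups were chosen after the values were seen. Eif2s1 (Entrez 13665), the alpha subunit that stress kinases phosphorylate, went from 9.36 and 9.21 to 9.78 and 9.70, a 1.37-fold rise (0.46 ± 0.080, limma adjusted p = 0.00168). Eif2s2, the beta subunit, went from 10.79 and 10.68 to 10.94 and 11.19 (0.33 ± 0.083), and Eif2s3x, the X-linked gamma subunit, from 10.42 and 10.34 to 10.65 and 10.61 (0.25 ± 0.071). Eif2b3, the gamma subunit of eIF2B, went from 6.69 and 6.52 to 7.09 and 6.79 (0.34 ± 0.112, limma adjusted p = 0.0473). In each of these 4 genes both lysate libraries lay above both untreated ones, as they did for 28.5% of all genes. The 4 were picked by their calls, so this adds no support. Without wild-type alone replicate 2, Eif2s2, Eif2s3x and Eif2b3 lost their calls. Eif2s2 also lost its call without wild-type lysate replicate 2, Eif2b3 without wild-type lysate replicate 1 and Eif2s3x without either wild-type lysate library, and Eif2b3 and Eif2s3x lost theirs without either Ythdf1-/- lysate library. The change of Eif2b3 was 0.18 without wild-type lysate replicate 1, and that of Eif2s2 was 0.20 without wild-type lysate replicate 2. After the correction for GC content and length the changes of Eif2s2 and Eif2s3x were 0.20 and 0.14.

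In Ythdf1-/- cells none of these 9 passed the threshold with lysate (15.2% of all genes did), and their median change was 0.03. Eif2s1 stood at 9.19 and 9.31 alone and at 9.50 and 9.46 with lysate (0.23 ± 0.080, limma adjusted p = 0.0678). Its lysate libraries did not overlap the untreated ones, but lay below both wild-type lysate libraries. The test of the difference between genotypes in the lysate change is given further on. Eif2s2 stood at 10.69 and 10.70 alone and 10.90 and 10.89 with lysate in these cells (0.20, limma adjusted p = 0.126), and Eif2b3 at 6.41 and 6.55 alone and 6.74 and 6.83 with lysate (0.31, limma adjusted p = 0.0811). For Eif2s3x the values were 10.25 and 10.39 alone and 10.38 and 10.40 with lysate. The lysate libraries of Eif2s2 and Eif2b3 thus lay above the untreated ones without passing the test, and those of 28.9% of all genes lay above as well.

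Core factors without a call in either lysate comparison showed small shifts in Ythdf1-/- as well. Eif1 stood at 12.79 and 12.64 alone and 12.72 and 12.63 with lysate, and Eif5 at 12.17 and 12.42 alone and 12.43 and 12.47 with lysate. Eif3a stood at 12.82 and 12.92 alone and 12.81 and 12.77 with lysate, and Eif4g1 at 12.23 and 12.13 alone and 12.31 and 12.31 with lysate. For Eif6 the values were 10.08 and 9.93 alone and 9.90 and 9.85 with lysate. Of these 5, only Eif5 and Eif4g1 had both lysate libraries above both untreated ones, and Eif3a and Eif6 had both below. Of all genes 28.9% had both above and 30.2% both below. Eef1a1 stood at 15.71 and 15.69 alone and 15.56 and 15.62 with lysate, and Eef2k at 7.30 and 7.13 alone and 7.17 and 7.18 with lysate. Factors called in wild type stood as follows. Eif1a was at 9.49 and 9.67 alone and 9.79 and 9.84 with lysate (0.24, limma adjusted p = 0.0809). Eif5b was at 11.79 and 11.75 alone and 11.89 and 11.79 with lysate. Eif4b was at 11.92 and 11.97 alone and 11.83 and 11.75 with lysate (-0.16, limma adjusted p = 0.115), and Eef2, the translocase, at 14.02 and 13.96 alone and 13.79 and 13.86 with lysate (-0.16, limma adjusted p = 0.13). Eif4ebp2 was at 8.80 and 8.60 alone and 8.39 and 8.63 with lysate, so its groups overlapped.

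Of the 6 genes for start codon scanning, 2 rose in wild type and none fell (33.3% called, against 21.5% of all genes). Eif1a (Entrez 13664), which keeps the scanning ribosome open, went from 9.68 and 9.51 to 10.00 and 9.90 (0.36 ± 0.085, limma adjusted p = 0.0105). Eif1ax, its X-linked copy, rose by 0.28 ± 0.092 (limma adjusted p = 0.0427). Eif1, which guards start codon choice, showed a split pair with lysate, at 12.24 and 12.62 against 12.62 and 12.65 alone, and was not called. Eif5, which triggers GTP hydrolysis by eIF2, stood at 12.40 and 12.16 alone and 12.42 and 12.47 with lysate. For subunit joining, Eif5b (Entrez 226982) went from 11.75 and 11.66 to 12.04 and 11.93 in wild type (0.28 ± 0.070, limma adjusted p = 0.0128), and Eif6, which keeps the large subunit apart, was not called at 9.87 and 10.01 alone and 9.80 and 10.05 with lysate. Leaving out replicate 2 of the untreated wild-type libraries, or replicate 1 of those with lysate, ended the calls of Eif1a, Eif1ax and Eif5b. After the correction for GC content and length the changes of Eif1a and Eif1ax were 0.21 and 0.15. The call of Eif1ax also ended without wild-type lysate replicate 2 or either Ythdf1-/- lysate library.

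The eIF3 scaffold, the largest initiation complex and a known partner of YTHDF1, was called about as often as genes at large. Of 13 subunits 2 rose, 1 fell and 10 were not called in wild type (23.1% called, against 21.5% of all genes), with a median change of -0.01. Eif3b rose by 0.21 ± 0.066 and Eif3j1, a loosely bound subunit, by 0.30 ± 0.10 (limma adjusted p = 0.0369 and 0.0475). Eif3h (Entrez 68135) went from 10.99 and 10.98 to 10.75 and 10.83, and fell by 0.20 ± 0.067 (limma adjusted p = 0.0481). Eif3a, the core subunit, stood at 12.77 and 12.72 alone and 12.93 and 12.80 with lysate. The calls of Eif3b and Eif3h were lost without any 1 of the 4 wild-type libraries or either Ythdf1-/- lysate library. That of Eif3j1 was lost without wild-type alone replicate 2, either wild-type lysate library or either Ythdf1-/- lysate library.

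Among scaffolds and helicases 1 of 9 rose and 1 fell in wild type (22.2% called, against 21.5% of all genes). Eif4a1 (Entrez 13681), the helicase that opens leader sequences, went from 12.82 and 12.85 to 13.15 and 13.34, a 1.32-fold rise (0.41 ± 0.073, limma adjusted p = 0.00202). In Ythdf1-/- it went from 12.82 and 12.71 to 13.03 and 13.05 (0.28 ± 0.073, limma adjusted p = 0.0212). The Ythdf1-/- call was lost without replicate 2 of the untreated Ythdf1-/- cells or either Ythdf1-/- lysate library. Its partner Eif4b (Entrez 75705), which stimulates the helicase, went from 11.99 and 11.98 to 11.78 and 11.76 in wild type and fell by 0.21 ± 0.064 (limma adjusted p = 0.0336). The calls of Eif4b were lost without any 1 of the 4 wild-type libraries or either Ythdf1-/- lysate library. Eif4g1, the main scaffold, was not called, at 12.13 and 12.23 alone and 12.32 and 12.27 with lysate.

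**Figure D2:**
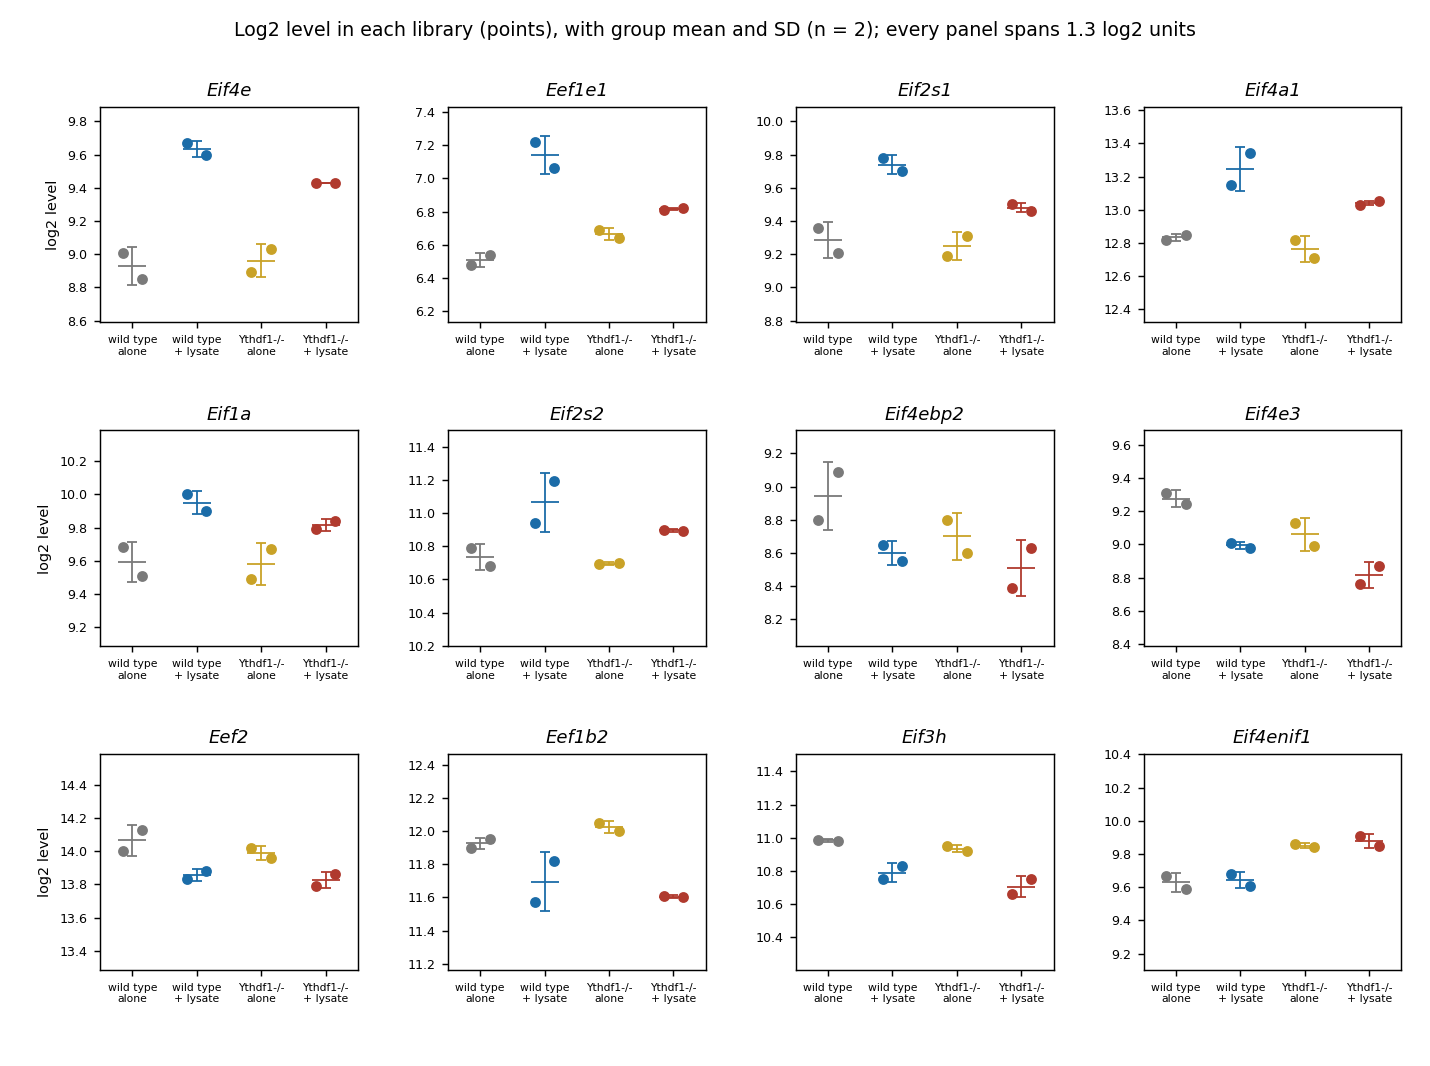
Log2 level of 12 members in each library (points), with the mean and SD of each group of 2 libraries, on axes that each span 1.3 log2 units. Eif4e is higher in all 4 lysate libraries than in all 4 others, Eef1e1 is highest in wild type with lysate (7.22 and 7.06), and Eif4enif1 is higher in all 4 Ythdf1-/- libraries than in all 4 wild-type ones.

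The elongation group, which counts Eef1e1 by its name only, divided in wild type. Of its 9 genes 3 were higher, 1 lower and 5 not called (44.4% called, against 21.5% of all genes). Eef1e1 (Entrez 66143), also called AIMP3 and a scaffold part of the complex of tRNA synthetases, went from 6.48 and 6.54 to 7.22 and 7.06, a 1.55-fold rise (0.63 ± 0.089, limma adjusted p = 0.000408). Eef1g, a subunit of the exchange factor of eEF1A, rose by 0.23 ± 0.070 (limma adjusted p = 0.035), and Eif5a, which frees stalled ribosomes, by 0.24 ± 0.064 (limma adjusted p = 0.0159). Eef2 (Entrez 13629), the translocase, went from 14.00 and 14.13 to 13.83 and 13.88 and fell by 0.21 ± 0.068 (limma adjusted p = 0.0418). Its kinase Eef2k was not called, at 7.27 and 7.40 alone and 7.49 and 7.37 with lysate. Eef1a1 was not called either, at 15.68 and 15.72 alone and 15.69 and 15.70 with lysate. The call of Eif5a was lost without any 1 of the 4 wild-type libraries, and that of Eef1g without either untreated wild-type library, wild-type lysate replicate 2 or either Ythdf1-/- lysate library. Without wild-type lysate replicate 2 the change of Eef1g was 0.15, and after the correction for GC content and length that of Eef2 was -0.12. The call of Eef2 ended when replicate 2 of untreated wild type was left out, and likewise when any 1 of the 4 lysate libraries was.

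In Ythdf1-/- cells lysate raised Eif4e and Eif4a1 and lowered Eef1b2, Eef1d and Eif3h. These 5 of 61 are 8.2% of members, against 15.2% of all genes tested. The 2 rises compare with 8.28% of all genes called higher and the 3 falls with 6.92% called lower. The median change of members was -0.040, and that of all genes was -0.001. Both lysate libraries lay above both untreated ones for 20 members (28.9% of all genes) and below them for 24 (30.2% of all genes). The count was 2 without either Ythdf1-/- lysate library and 15 without Ythdf1-/- alone replicate 2, and 19 after removal of each library's trend on transcript GC content and length, an alternative chosen after the data were seen. Beside all genes, the share of members was 3.3% against 4.8% in the first case, 24.6% against 19.3% in the second and 31.1% against 25.3% in the third. A block with crossed replicate numbers, also chosen then, gave 18 members, 29.5% against 24.8% of all genes. Whether members were called less or more often than genes at large in this genotype thus changed with these alternatives, whereas median centring and quantile normalization left the count at 5 and 6.

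The falls were in the elongation machinery and eIF3. Eef1b2 (Entrez 55949), the exchange factor that recharges eEF1A, went from 12.05 and 12.00 to 11.61 and 11.60 in Ythdf1-/-, and fell by 0.42 ± 0.079 (limma adjusted p = 0.00329). In wild type it went from 11.90 and 11.95 to 11.57 and 11.82, and its change of -0.23 missed the threshold (limma adjusted p = 0.0509). Eef1d (Entrez 66656), another exchange subunit, went from 9.88 and 9.90 to 9.47 and 9.69 and fell by 0.31 ± 0.085 (limma adjusted p = 0.0265). In wild type the change of Eef1d was -0.08 (limma adjusted p = 0.557). Eif3h went from 10.95 and 10.92 to 10.66 and 10.75 and fell by 0.23 ± 0.067 (limma adjusted p = 0.0323). Eef1b2 lost its call without Ythdf1-/- lysate replicate 2 (limma adjusted p = 0.0516), Eef1d without Ythdf1-/- lysate replicate 1 (a change of -0.20), and Eif3h without any 1 of the 4 Ythdf1-/- libraries.

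The lysate changes of both genotypes share no library. Of 61 members 51 changed in the same direction in both (83.6%, against 75.6% of all genes), and the changes correlated across the members with a Pearson r of 0.80 and a Spearman rho of 0.80, a description across genes of the same 8 libraries. Members called in the same direction in both numbered 3, which were Eif4e, Eif4a1 and Eif3h. The lysate change was lower in Ythdf1-/- than in wild type for 45 of 61 members (73.8%, against 49.7% of all genes). The median of this difference was -0.082 over members and 0.001 over all genes. Untreated and lysate libraries of both genotypes enter each difference, and members are not independent of one another.

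No single member passed the test of that difference. With limma 0 of 61 were called, against 0.11% of all genes, and 1 had an unadjusted p under 0.05. That 1 was Eef1e1, which went from 6.69 and 6.64 to 6.81 and 6.82 in Ythdf1-/- (0.15 ± 0.089), so that its difference was -0.48 ± 0.126 (limma adjusted p = 0.289). For Eif4e the difference was -0.23 ± 0.115 (limma adjusted p = 0.643). Missing the threshold does not show that the genotypes responded alike.

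**Figure D3:**
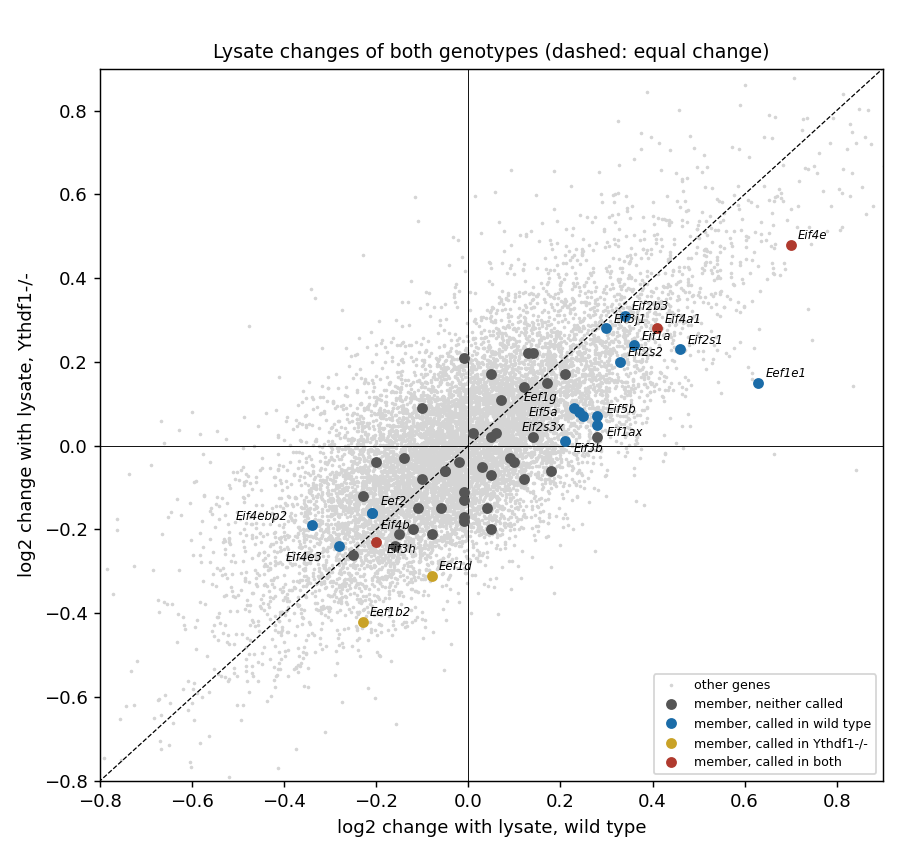
Log2 change with lysate in wild type (horizontal) and in Ythdf1-/- (vertical), each point a gene, with members coloured by the genotype in which they were called and other genes in grey on axes from -0.8 to 0.9. Most of the called members on the right lie under the dashed line of equal change, with Eef1e1 the farthest (0.63 and 0.15). Most of these were picked by their rise in wild type, which by itself favours a place under the line. No single member passed the test of the difference.

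Between genotypes without lysate few factors were called. Of 61 members 1 was higher and 1 lower in Ythdf1-/-, 3.3% against 16.2% of all genes tested, and 7 had an unadjusted p under 0.05. Of all genes 7.02% were higher and 9.23% lower. All members lay within -0.25 and 0.25, with a median of 0.003. Both Ythdf1-/- libraries lay above both wild-type ones for 14 members (26.4% of all genes) and below them for 11 (26.4% of all genes). The higher gene was Eif4enif1 (Entrez 74203), the 4E-T protein that carries eIF4E to the nucleus and to processing bodies, at 9.67 and 9.59 in wild type and 9.86 and 9.84 in Ythdf1-/- (0.22 ± 0.071, limma adjusted p = 0.0485). The lower was Eif4g3 (Entrez 230861), a scaffold relative of Eif4g1, at 11.29 and 11.34 in wild type and 11.11 and 11.04 in Ythdf1-/- (-0.24 ± 0.072, limma adjusted p = 0.0386). Neither library pair overlapped. Leaving out any 1 of the 8 libraries ended the call of Eif4enif1. The call of Eif4g3 ended without either untreated wild-type library, Ythdf1-/- alone replicate 2 or either Ythdf1-/- lysate library. Quantile normalization also ended the call of Eif4g3. The count of 2 fell when either untreated wild-type library or any 1 lysate library was left out, as did the share of all genes called. The count was 8 after the correction for GC content and length (13.1% against 26.4% of all genes).

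With lysate, 1 member was higher and 3 were lower in Ythdf1-/-, 6.6% against 12.9% of all genes tested, and 12 had an unadjusted p under 0.05. Of all genes 7.44% were higher and 5.45% lower. The median difference over members was -0.075, and over all genes -0.008. Both Ythdf1-/- libraries lay below both wild-type ones for 25 members (31% of all genes) and above them for 6 (29.6% of all genes). Eif4enif1 was again higher, at 9.91 and 9.85 against 9.68 and 9.61 (0.24 ± 0.071, limma adjusted p = 0.0436), so that all 4 Ythdf1-/- libraries lay above all 4 wild-type ones. Eef1e1 was lower, at 6.81 and 6.82 against 7.22 and 7.06 (-0.33 ± 0.089, limma adjusted p = 0.0297). Eif5a was lower, at 12.02 and 12.09 against 12.29 and 12.29 (-0.24 ± 0.064, limma adjusted p = 0.0276), and Eif2s3x at 10.38 and 10.40 against 10.65 and 10.61 (-0.24 ± 0.071, limma adjusted p = 0.041).

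Without lysate the differences of these last 3 genes were 0.16, -0.07 and -0.06, in that order, and none was called. The calls with lysate of Eif4enif1, Eif5a and Eif2s3x were lost without any 1 of the 4 lysate libraries, and that of Eef1e1 without wild-type lysate replicate 1 or either Ythdf1-/- lysate library. Median centring also ended the call of Eif4enif1 with lysate. The count of 4 fell when any 1 lysate library was left out, as did the share of all genes called. The count was 9 after the correction for GC content and length (14.8% against 22.9% of all genes). The neutrophil markers, which differed between genotypes in both treatments (8 of 9 lower in Ythdf1-/-, median differences of -1.45 and -1.35), moved with each of these comparisons. So did dendritic cell markers (of 11, 4 higher and 1 lower without lysate and 6 higher with it) and macrophage markers (of 12, 7 and 3 lower). Among the dendritic cell markers, Batf3, a transcription factor of conventional dendritic cells, differed the most (0.84 and 0.73). Itgax went the other way (-0.33, called, and -0.16, not called). H2-Ab1 (-0.04 and -0.04), H2-Eb1 (0.11 and 0.09) and Cd74 (0.02 and -0.06) were not called. The part of these cell types was not tested.

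**Figure D4:**
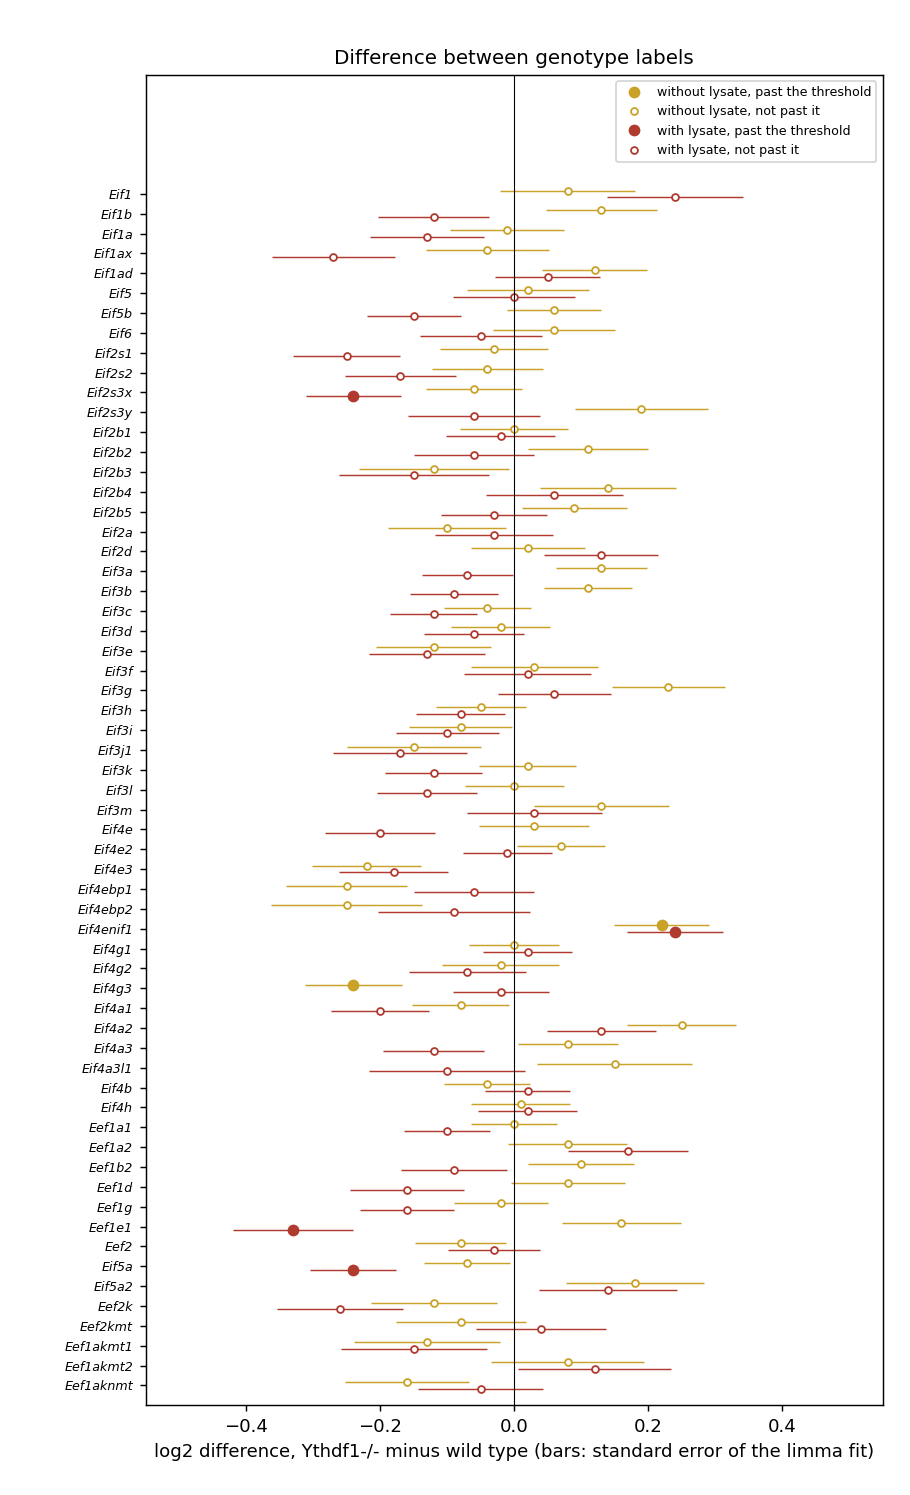
Log2 difference between Ythdf1-/- and wild type for every member, without lysate (yellow) and with lysate (red), with bars for the standard error of the limma fit and filled points for genes past the threshold. Only 2 points are filled without lysate and 4 with lysate, and Eif4enif1 is filled in both.

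Genes that act on these factors were read from lists written for this purpose. Their counts stand beside 21.5% of all genes called with lysate in wild type and 15.2% in Ythdf1-/-. Of 13 genes of the eIF2 kinases and the stress response, 1 rose and 4 fell in lysate-treated wild type, and 2 rose and 1 fell in Ythdf1-/- (38.5% and 23.1% called). Eif2ak2, the interferon-induced kinase PKR, went from 10.90 and 10.66 to 11.18 and 11.08 in wild type (0.35 ± 0.082) and from 10.49 and 10.56 to 11.11 and 11.03 in Ythdf1-/- (0.54 ± 0.082), and was called in both. Without lysate it was lower in Ythdf1-/- than in wild type (-0.26 ± 0.082). The other eIF2 kinases did not rise with lysate in wild type. There Eif2ak3 (-0.22 ± 0.070) and Eif2ak1 (-0.25 ± 0.080) fell, and Eif2ak4 was not called (-0.01 ± 0.086). In Ythdf1-/- none of these others was called with lysate. Sesn2, a stress-induced brake on mTORC1, went from 10.81 and 10.96 to 10.52 and 10.48 and fell by 0.38 ± 0.072 in wild type and by 0.28 ± 0.072 in Ythdf1-/-. It was higher in Ythdf1-/- both without lysate (0.40 ± 0.072) and with it (0.50 ± 0.072). Atf4, the transcription factor translated under eIF2 phosphorylation, was not called in any of these comparisons. Of 23 genes of mTOR complex 1 and its regulators, 3 rose and 3 fell in lysate-treated wild type and 1 rose and 1 fell in Ythdf1-/- (26.1% and 8.7% called). Between genotypes 4 were higher and 4 lower without lysate (34.8% called, against 16.2% of all genes), and 2 higher and 3 lower with it (21.7% against 12.9%). Deptor, an inhibitor of mTOR, went from 10.02 and 9.81 to 9.38 and 9.29 and fell by 0.58 ± 0.088 in wild type, and by 0.32 ± 0.088 in Ythdf1-/-. Deptor was also lower in Ythdf1-/- than in wild type without lysate (-0.53 ± 0.088), and its difference of -0.28 with lysate missed the threshold (limma adjusted p = 0.053). Other genes of this list went in both directions. With lysate in wild type Rptor fell (-0.290 ± 0.070) and Rraga rose (0.395 ± 0.085). Tsc1 was higher in Ythdf1-/- without lysate (0.313 ± 0.067) and with it (0.443 ± 0.067), and Lamtor2 was lower with it (-0.448 ± 0.083).

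The later steps of translation moved in part. Of 9 termination and recycling factors 2 rose with lysate in each genotype, and 2 fell in wild type and 0 in Ythdf1-/- (44.4% and 22.2% called). Abce1, which splits ribosomes after termination, went from 9.45 and 9.25 to 10.08 and 9.84 in wild type (0.61 ± 0.094) and from 9.17 and 9.31 to 9.65 and 9.66 in Ythdf1-/- (0.41 ± 0.094). Gspt1, the release factor eRF3a, rose by 0.41 ± 0.094 and 0.30 ± 0.094, in that order. Of 22 cytosolic aminoacyl-tRNA synthetase genes, 5 rose in wild type and 1 in Ythdf1-/-, and none fell (22.7% and 4.5% called). Rars, which charges arginine tRNA, rose in both (0.48 ± 0.071 and 0.26 ± 0.071), and Farsb, which charges phenylalanine tRNA, rose in wild type (0.53 ± 0.088) and was lower in Ythdf1-/- than in wild type with lysate (-0.36 ± 0.088). Between genotypes with lysate 2 of these 22 were called, both lower in Ythdf1-/- (9.1%, against 12.9% of all genes). Without lysate none was. Among 21 cap and poly(A) tail partners 1 rose and 4 fell in wild type, and in wild type Gigyf1, a partner of eIF4E2, changed by -0.46 ± 0.080 and Mknk2, a kinase of eIF4E, by -0.40 ± 0.081. In Ythdf1-/- 1 of these 21 rose and 2 fell (23.8% called in wild type and 14.3% here). The 1 that rose was Cyfip1 in both genotypes (0.31 ± 0.064 in wild type and 0.22 ± 0.064 in Ythdf1-/-). Of 10 modifiers of elongation factors 1 rose in each genotype, Dph6, which helps make diphthamide on eEF2 (0.44 ± 0.102 and 0.41 ± 0.102). Of 12 mitochondrial translation factors 2 rose in wild type and none was called in Ythdf1-/-, and none of 5 YTH readers was called in either.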

How the data were processed

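The authors deposited log2 values per Entrez gene for 8 libraries, read here as the regularized logarithm of DESeq2. That reading is inferred from the table's name and from the tools named in the submitters' processing notes (STAR, deepTools, DESeq2, build mm9, no versions). For the counter, its strand setting, the annotation and the gene filter nothing is stated in the labels. A regularized logarithm understates changes of low genes.

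Symbols came from RefSeq GRCm38.p6 (11744 matched, 42 not), used for names and promoter windows only. A gene was tested where at least 1 group mean reached 4 (11785 genes, 1 removed), using limma 3.58.1 in R 4.3.3 on group means, with a mean-variance trend, two-sided, 4 residual and 9.33 prior degrees of freedom. Figures used Python 3.11.15. The fit was tested on simulated data. For lysate in wild type it recovered 10.4% of 67 genes given a log2 change of 0.25. It recovered 97.0% of 67 genes given 0.5 and 100.0% of 66 genes given 1. It also called 14 genes that were given no change. Most genes given a change of 0.25 were thus missed.

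Transcript length and GC content were medians over GENCODE M21 protein-coding transcripts (96.9% of genes tested). Members and lists were chosen with earlier results of these data known. Library values are given for Ythdf1, for the up to 6 largest called rises and falls per comparison and for 13 core factors. The role groups, the promoter motifs, the plotted genes and the set of TOP mRNAs were chosen after the values were seen. RefSeq start sites were also looked at for pyrimidine runs and not pursued. Other called members, Eif4e2 and Eif2s3y were also named after their values were seen. List genes were among the 3 smallest p per comparison, besides Atf4 and the eIF2 kinases other than Eif2ak2. Genes of marker lists were named after their values were seen. Same-numbered libraries did not deviate together (r from -0.61 to 0.26 between groups), so no replicate block was used.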

Additional observations from a re-analysis of the deposited data

How the results depend on the processing

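Alternatives were a threshold of 0.01 or 0.10, no filter or one at 6, median centring, quantile normalization, no mean-variance trend, robust shrinkage, only the groups compared, a replicate block, and each library left out. A correction of each library for transcript GC and length, and a crossed block, were added after seeing the data. For lysate in wild type the 19 called members became 4 at 0.01, 12 with no trend and 10 with the replicate block, and 4 to 23 with 1 library left out. With no trend 19.7% of members and 20.4% of all genes were called, and with the replicate block 16.4% and 16.9%. For lysate in Ythdf1-/- the 5 became 2 at 0.01, 15 at 0.10 and 19 after the GC and length correction, and 2 to 15 with 1 library left out. Between genotypes without lysate the 2 became 0 at 0.01, with the block, with no trend and with only the groups compared, 1 after quantile normalization, 6 at 0.10 and 8 after the GC and length correction, and 0 to 3 with 1 library left out. Of all genes the block called 13.1% there, no trend 15.4% and only the groups compared 10.2%. With lysate the 4 became 0 at 0.01 and with the block, 1 with no trend, 8 at 0.10 and 9 after the GC and length correction, and 0 to 6 with 1 library left out. The difference of lysate effects kept 0 members in every fit that was run. Same-numbered untreated libraries of both genotypes deviated in opposite directions (r = -0.61). A block with the numbers of untreated Ythdf1-/- swapped gave 23, 18, 6 and 9 called members in those 4 comparisons, in that order. These were 37.7%, 29.5%, 9.8% and 14.8% of members, against 31.8%, 24.8%, 23.3% and 22.4% of all genes. With this block members were thus called less often than genes at large in both comparisons between genotypes.

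Of 30 called member changes 5 stayed called in every fit, those of Eif4e in both genotypes and of Eif2s1, Eif4a1 and Eef1e1 in wild type, and none changed sign. Over 54 changes given here and their alternatives (1078 values), 866 kept their side of the threshold and their sign, 175 lost the call, 28 gained one and 9 changed sign. After the GC and length correction the lysate change in Ythdf1-/- was -0.025 for Eif5b and -0.068 for Eif1ax, and after quantile normalization -0.018 for Eif3b. With 1 library left out it ranged from -0.001 to 0.134 for Eif2s3x, from -0.022 to 0.049 for Eif3b and from -0.068 to 0.176 for Eif1ax. The genotype difference of Eif2s3x without lysate ranged from -0.128 to 0.006, and that of Eif4g3 with lysate from -0.105 to 0.064. Which changes are listed here was decided after the alternatives had been run. The 101 further planned member changes, of which 0 were called, changed sign in 87 of their alternatives and are not listed. The cause of these shifts was not tested. The 2 libraries a group and the unknown depth limit what small changes can show.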

Other observations

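Several elongation and eIF3 genes are textbook members of the TOP mRNAs, transcripts whose leader starts with a run of pyrimidines and which mTORC1 controls together with ribosomal protein mRNAs. The set taken here (Eef1a1, Eef1b2, Eef1d, Eef1g, Eef2, Eif3e, Eif3f, Eif3h and Eif4b) was written after the values were seen and carries no test. A set drawn in this way cannot show that TOP mRNAs fell together. Other eIF3 genes were left out of it, Eif3a among them (0.12 in wild type and -0.08 in Ythdf1-/-). With lysate, 8 of the 9 in the set had a change below 0 in wild type (median -0.20, 3 called lower and 1 higher). In Ythdf1-/- 8 of 9 did (median -0.16, 3 called lower and 0 higher). The wild-type changes below 0 include -0.01 for Eef1a1, -0.05 for Eif3e and -0.08 for Eef1d, none of them called. Of the 52 other members, 19 lay below 0 in wild type (median 0.06) and 25 in Ythdf1-/- (median 0.01). All 3 falls called in Ythdf1-/- (Eef1b2, Eef1d, Eif3h) belonged to this set, and so did 3 of the 5 in wild type (Eef2, Eif3h, Eif4b). Eef1g was the exception that rose in wild type.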
